A study of Bos taurus with 12 samples.

Results

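Cells of an epithelium hold to each other and to their surroundings through surface proteins. Claudins seal the space between neighbouring cells at tight junctions, connexins form the channels of gap junctions, cadherins bind like to like at adherens junctions, and integrins bind the extracellular matrix. The trophoblast of a ruminant conceptus is such an epithelium: it elongates free in the uterus and then attaches to the maternal epithelium, and integrins and their matrix ligands are known for their part in that attachment.

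The genes described here are 8 of the 9155 genes named on the array: the claudin genes CLDN1 and CLDN4, the connexin gene GJB5, the cadherin genes CDH1 and CDH2, the integrin gene ITGAV and the surface protein genes TSPAN1 and PLET1. They were taken by symbol, which gave 12 of 24016 probe sets, groups of short probes against a transcript. CLDN1, CDH1, ITGAV and PLET1 have 2 probe sets each and the other genes 1. The genes were chosen by their measured log2 differences, with the comparisons of SCNT and IVP conceptuses with AI conceptuses and the levels in fibroblasts in view. Those values are therefore given as a description, with no p, and counts of calls among the 8 genes stand only beside the share called of all probe sets. The difference between SCNT and IVP conceptuses was tested, but it comes from the same arrays, and whether it entered the choice is not known.

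Total RNA was hybridized to Affymetrix bovine genome arrays, with 3 arrays in each of 4 groups of cattle (Bos taurus) material. SCNT conceptuses grew from embryos made by somatic cell nuclear transfer, in which a body cell's nucleus replaces that of an oocyte. IVP conceptuses came from fertilization and embryo culture in vitro, and AI conceptuses from embryos produced in vivo. All 3 kinds were placed in synchronized cows as blastocysts on day 7 and recovered on day 16 at comparable length, so that AI conceptuses had also been through a transfer. The 4th group, FB, holds the fibroblasts that served as nuclear donors, and its titles and tissue label nevertheless call it elongated embryo. The labels do not name the strain or sex, or say whether an array held 1 conceptus or a pool, so the spread between arrays may be partly technical.

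Levels are log2 signals, so that 1 unit is a 2-fold difference, and a level was taken as measurable above log2 4. The lowest values lay near 2.42, and below 4 a level is only a bound. Between 26.5% and 27.7% of the probe sets lay above 4 on each array. Of 11 trophoblast markers 10 were above 4 on every conceptus array and 0 on any fibroblast array, while of 14 fibroblast markers 12 were above 4 on the fibroblast arrays and 2 on the conceptus arrays. The fibroblast arrays thus carried fibroblast transcripts despite their titles. Of 12 markers of endometrial epithelium, ASRGL1 alone was above 4 on every conceptus array, and SERPINA14, PGR and ESR1 lay at 2.52 or below on all of them. Hybridization spike-ins averaged 8.24 to 8.30 on AI 2, IVP 2 and IVP 3 and 7.35 to 7.75 on the other conceptus arrays. The RNA came from weighed samples of conceptus tissue that mix cell types, so fewer cells of a type and less RNA per cell cannot be told apart in any value below.

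**Figure D1:**
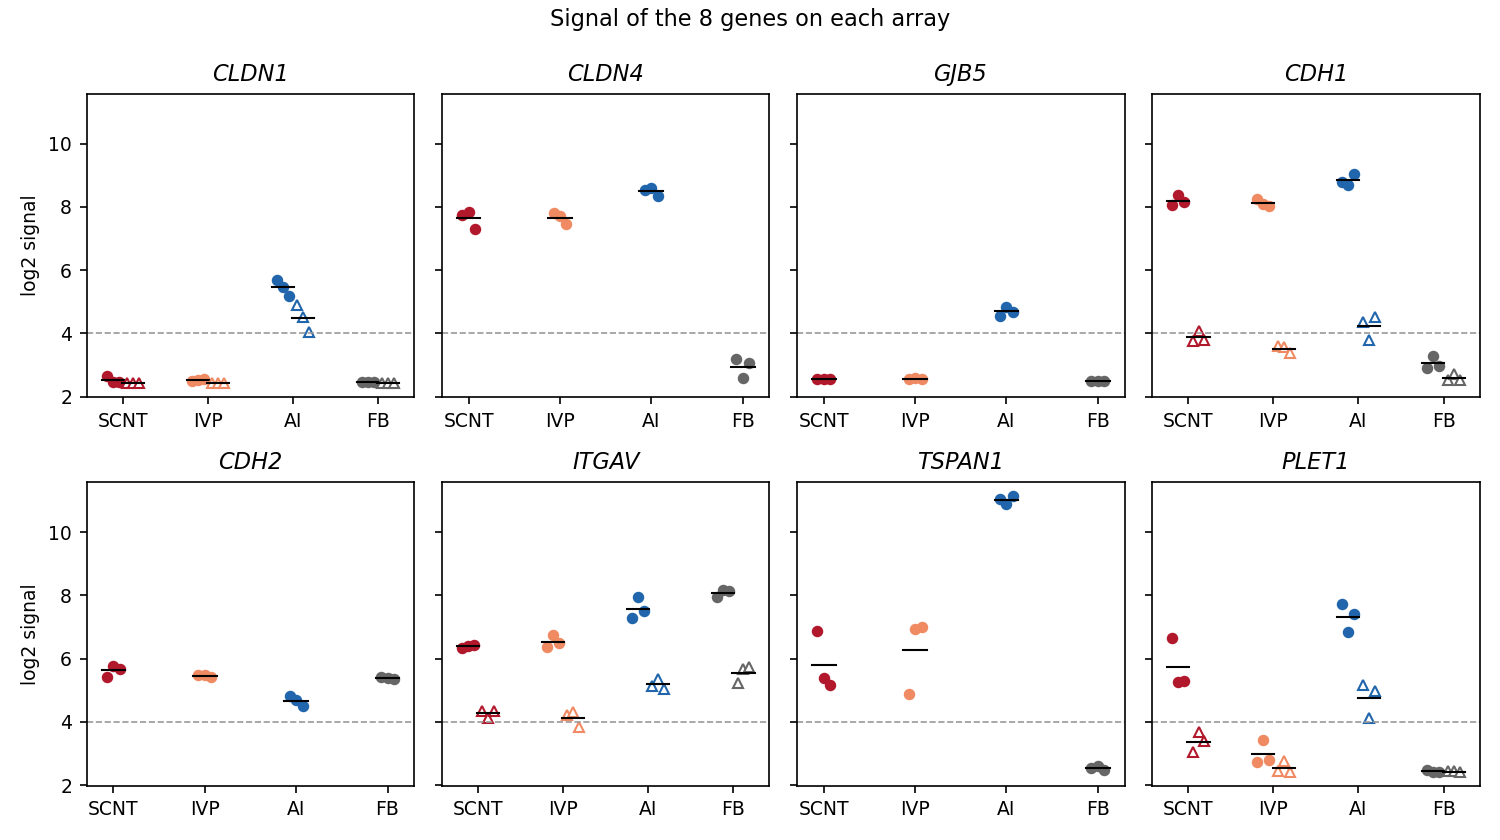
Log2 signal (vertical axis) of the 8 genes on each array, by group (SCNT, IVP, AI and FB from left to right). Filled circles are the brighter or only probe set, open triangles the dimmer one, black bars are group means of 3 arrays and the dashed line marks log2 4. CLDN1 and GJB5 are above the line in AI conceptuses alone, TSPAN1 reaches 11.03 there, CDH2 is lowest there, and ITGAV is highest in fibroblasts.

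CLDN1 encodes a claudin of the tight junction seal. Its brighter probe set read 2.66, 2.48 and 2.47 in SCNT conceptuses, 2.50, 2.53 and 2.57 in IVP conceptuses, 5.69, 5.48 and 5.19 in AI conceptuses, and 2.47 on each fibroblast array. Only the AI arrays were above log2 4, and the SCNT and IVP arrays lay at most 2.66, beside the fibroblast level. The mean was lower than in AI conceptuses by at least 2.74-fold in both SCNT and IVP conceptuses, with arrays below 4 set to 4. Its dimmer probe set had the same order, at 2.44 on average in SCNT, 2.44 in IVP and 4.49 ± 0.43 in AI conceptuses (SD, n = 3).

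GJB5, a connexin known from the trophoblast of the mouse, showed the same pattern on its only probe set. It read 2.54 on each SCNT array, 2.54, 2.60 and 2.54 in IVP conceptuses, 4.54, 4.85 and 4.69 in AI conceptuses, and 2.49 on each fibroblast array. The AI arrays alone were above 4, which put the SCNT and IVP means at least 1.62-fold lower. A probe set was tested where at least 3 arrays exceeded log2 4. All 8 genes passed that filter, but CLDN1 and GJB5 passed it through the AI arrays only, so they had to differ.

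CLDN4, another claudin, was well above the fibroblast level in every conceptus. It read 7.76, 7.85 and 7.31 in SCNT conceptuses, 7.81, 7.70 and 7.45 in IVP conceptuses, 8.53, 8.59 and 8.35 in AI conceptuses, and 3.19, 2.58 and 3.07 in fibroblasts. All AI arrays lay above all SCNT and IVP arrays. The difference was -0.85 (SE 0.17) for SCNT minus AI and -0.84 (SE 0.17) for IVP minus AI. CLDN4 was at least 12.5-fold, 12.6-fold and 22.5-fold higher in SCNT, IVP and AI conceptuses than in fibroblasts.

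CDH1 encodes E-cadherin, which joins epithelial cells at adherens junctions. Its brighter probe set read 8.06, 8.37 and 8.16 in SCNT conceptuses, 8.25, 8.09 and 8.04 in IVP conceptuses, 8.80, 8.69 and 9.04 in AI conceptuses, and 2.91, 3.29 and 2.97 in fibroblasts. The AI arrays were again the highest and did not overlap with the others, by -0.65 (SE 0.14) for SCNT minus AI and -0.72 (SE 0.14) for IVP minus AI. The dimmer probe set lay near the limit of 4, with means below it in SCNT (3.88) and IVP conceptuses (3.52). Its signal was at least 1.15-fold lower in SCNT than in AI conceptuses, with overlapping arrays, and at least 1.17-fold lower in IVP conceptuses. E-cadherin signal was at least 18.3-fold, 17.4-fold and 28.8-fold higher in SCNT, IVP and AI conceptuses than in fibroblasts.

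CDH2 encodes N-cadherin, a cadherin of mesenchymal and nerve cells, and ran against the other 7 genes. It read 5.43, 5.77 and 5.69 in SCNT conceptuses, 5.49, 5.49 and 5.41 in IVP conceptuses, 4.82, 4.68 and 4.52 in AI conceptuses, and 5.43, 5.40 and 5.37 in fibroblasts. It was lowest in AI conceptuses, with no overlap, and the IVP and fibroblast arrays overlapped. The difference was 0.96 (SE 0.14) for SCNT minus AI and 0.79 (SE 0.14) for IVP minus AI. Fibroblasts had as much CDH2 signal as IVP conceptuses, so the name of an epithelial gene is not borne out for it in these arrays.

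ITGAV encodes the integrin αV subunit, which pairs with several β subunits and binds matrix proteins such as vitronectin and osteopontin. Its brighter probe set read 6.33, 6.39 and 6.45 in SCNT conceptuses, 6.38, 6.76 and 6.48 in IVP conceptuses, 7.29, 7.94 and 7.51 in AI conceptuses, and 7.95, 8.17 and 8.13 in fibroblasts. The order was fibroblasts, AI, then IVP and SCNT, whose arrays overlapped with each other. SCNT minus AI was -1.19 (SE 0.17) and IVP minus AI -1.04 (SE 0.17), and the dimmer probe set gave -0.92 and -1.06 (SE 0.16 for both). ITGAV had its highest mean in fibroblasts on both probe sets, so the same holds for it.

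TSPAN1 encodes a tetraspanin, a membrane protein with 4 passes that gathers integrins and other partners into patches. It read 6.87, 5.37 and 5.17 in SCNT conceptuses, 4.87, 6.95 and 7.01 in IVP conceptuses, 11.06, 10.89 and 11.16 in AI conceptuses, and 2.54, 2.59 and 2.46 in fibroblasts. The difference was -5.23 (SE 0.56) for SCNT minus AI and -4.75 (SE 0.56) for IVP minus AI. The AI arrays agreed closely (SD 0.14), while those of SCNT (SD 0.93) and IVP (SD 1.22) conceptuses were spread over more than a log2 unit. IVP 2 and IVP 3, the higher IVP arrays, were also those with high spike-in signal, whose part in the level was not tested, and without them and AI 2 the difference for IVP minus AI, then resting on 1 IVP array, was -6.23. TSPAN1 was at least 3.49-fold, 4.85-fold and 131-fold higher in SCNT, IVP and AI conceptuses than in fibroblasts.

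PLET1, placenta-expressed transcript 1, encodes a surface protein that marks trophoblast progenitors in the mouse. Its brighter probe set read 6.65, 5.26 and 5.29 in SCNT conceptuses, 2.72, 3.43 and 2.79 in IVP conceptuses, 7.73, 6.84 and 7.41 in AI conceptuses, and 2.47, 2.42 and 2.42 in fibroblasts. It is the only gene of the 8 for which the SCNT arrays stood between those of the other conceptus groups without overlap. SCNT minus AI was -1.60 (SE 0.37), and the IVP mean was at least 10.0-fold below that of AI conceptuses. On the dimmer probe set the AI arrays, at 4.75 ± 0.56 (SD, n = 3), were above log2 4, and all SCNT and IVP arrays were below it, where they have no order.

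Seen by group, 1 of the 8 genes was higher and 7 were lower in SCNT than in AI conceptuses, and all 8 were called by limma, where 27.6% of all 6892 probe sets tested were called. IVP conceptuses gave the same counts against AI, where 17.9% were called. The arrays did not overlap for all 8 genes in either comparison, against 44.3% of all probe sets in the first and 37.4% in the second. These contrasts chose the genes, so nothing is read from the counts, and both comparisons use the same AI arrays. The median difference over the 8 genes was -1.39 for SCNT minus AI and -1.59 for IVP minus AI, while over all probe sets tested it was 0.08 and 0.02. Of the 12 probe sets, the dimmer one of CDH1 was the only one not called for SCNT minus AI.

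**Figure D2:**
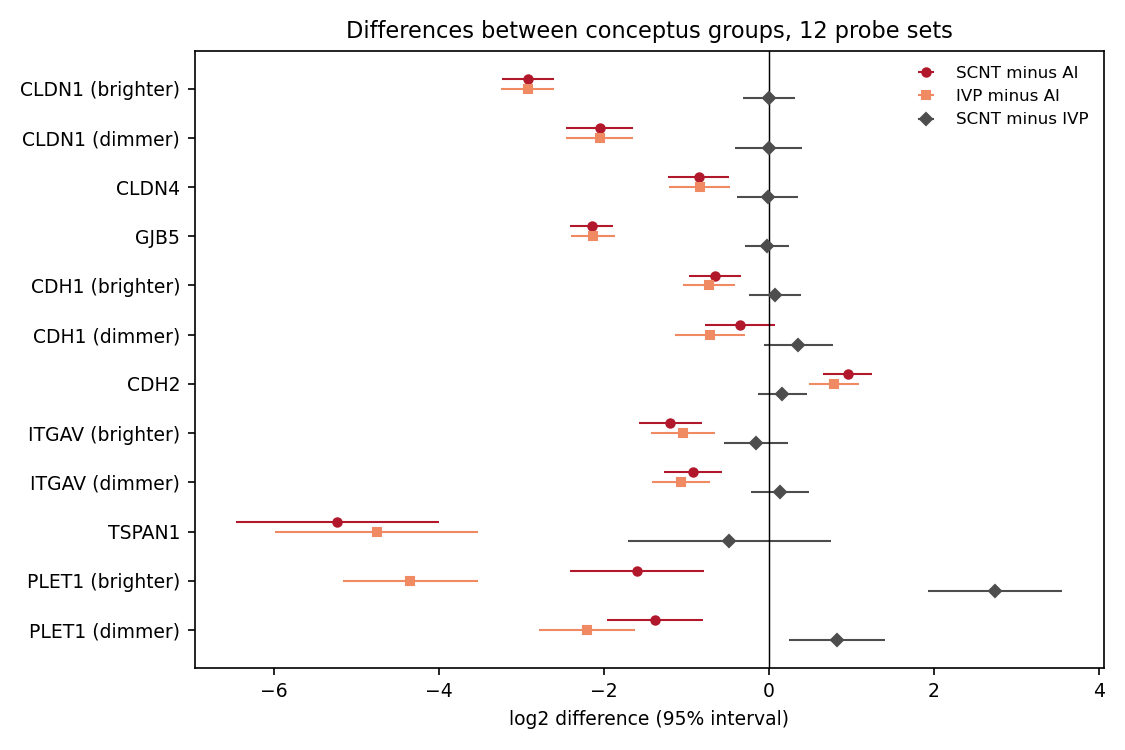
Log2 differences with 95% intervals (horizontal axis) for the 12 probe sets of the 8 genes. Circles are SCNT minus AI, squares IVP minus AI and diamonds SCNT minus IVP. Circles and squares lie close together for every gene but PLET1, whose brighter probe set is the only one whose SCNT minus IVP interval, 1.94 to 3.56, stays above 1 throughout.

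The levels of SCNT and IVP conceptuses were then set against each other. Of the 8 genes PLET1 was called, as higher, in a comparison where 0.58% of all probe sets were called, 0.232% as higher and 0.348% as lower. PLET1 was higher in SCNT than in IVP conceptuses by 2.75 (SE 0.37, 95% interval 1.94 to 3.56, adjusted p = 0.0105 in limma), with every SCNT array above every IVP array, as for 19.7% of all probe sets without overlap in either direction. Since IVP conceptuses were below log2 4, this is at least 3.32-fold. The dimmer probe set, below log2 4 on all arrays of both groups, did not pass (adjusted p = 0.231) and bears no fold. The call on the brighter probe set ended without IVP 3 (adjusted p = 0.0503), without the 3 arrays of high spike-in signal (adjusted p = 0.240, difference 3.01), which leaves 1 IVP array assumed to vary like the other groups, and without the filter on low signal (adjusted p = 0.164).

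The other 7 genes did not pass between SCNT and IVP conceptuses. A ratio of SCNT to IVP signal of 0.99 for CLDN4 had a 95% interval of 0.77 to 1.28, that of 1.05 for CDH1 an interval of 0.85 to 1.31, that of 1.12 for CDH2 an interval of 0.91 to 1.38 and that of 0.90 for ITGAV an interval of 0.69 to 1.18. These intervals bound the difference but do not show that the groups are alike. For TSPAN1 the ratio was 0.72 and its interval, 0.31 to 1.68, is far wider. CLDN1 and GJB5 lay below log2 4 in both groups, where a ratio has no meaning.

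Against fibroblasts, 4 of the 8 genes were called higher and 1 lower in SCNT conceptuses, and 79.9% of the 8164 probe sets tested over all 12 arrays were called, 45% higher and 34.8% lower. The fibroblast levels were in view when the genes were chosen, so nothing is read from the count. CLDN4, CDH1, TSPAN1 and PLET1 were the higher ones and ITGAV the lower one. The arrays of SCNT conceptuses and fibroblasts did not overlap for 7 of the 8 genes, CLDN1 being the exception, beside 84.7% of all probe sets. CDH2 differed by 0.23 (SE 0.11), and CLDN1 and GJB5 were below log2 4 on both sides. In AI conceptuses, by contrast, CDH2 was below the fibroblast level, by -0.73, and CLDN1 and GJB5 were above it.

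The other genes of junctions and adhesion came from lists of 252 names, of which 159 were on the array. Of these, 66 had a level above 4 on no array, and 73 were tested among the conceptuses. For SCNT minus AI 3 of the 73 were higher and 17 lower (27.4%), and for IVP minus AI 4 were higher and 16 lower (27.4%), next to 27.6% and 17.9% of all probe sets. Their median difference was -0.15 for SCNT minus AI and -0.14 for IVP minus AI, beside 0.08 and 0.02 over all probe sets. The share of lower ones among the calls was larger than in the whole table, where 16.2% of probe sets were higher and 11.4% lower for SCNT minus AI, and 8.42% and 9.49% for IVP minus AI. These shares are a description and carry no test of the list. Several of the called genes, described below, met the filter only with the arrays of the groups where they were high.

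**Figure D3:**
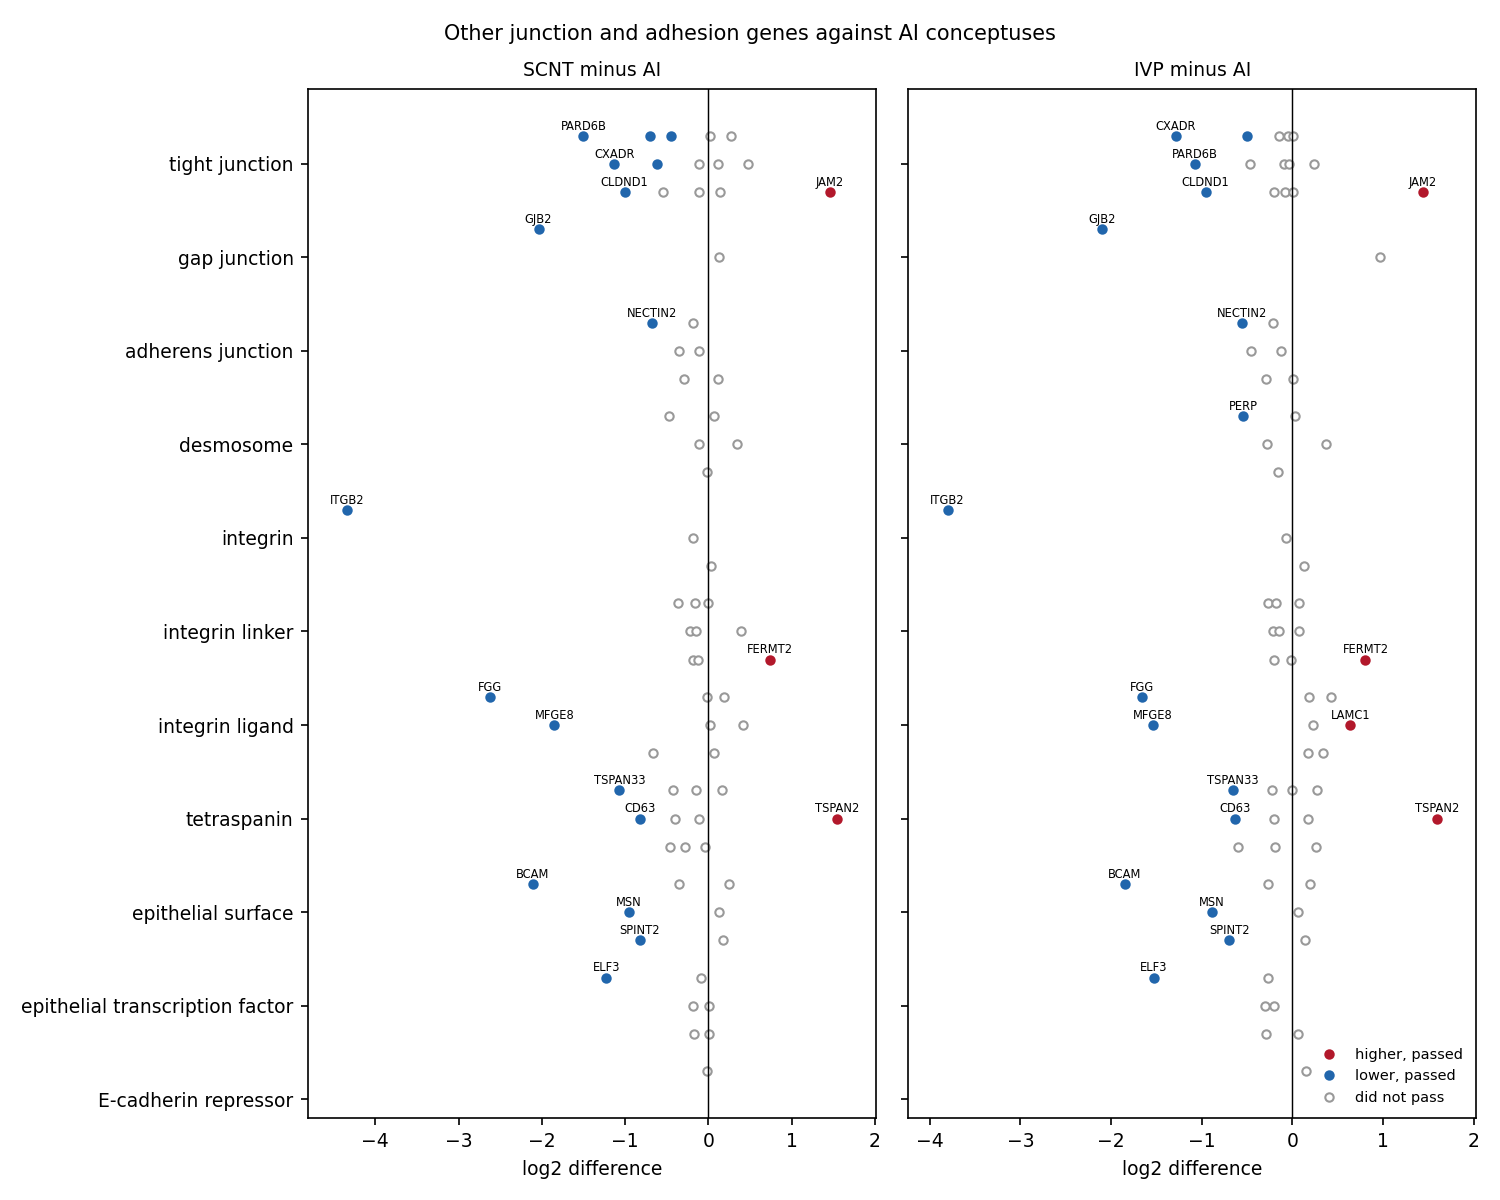
Log2 difference (horizontal axis) of 73 other junction and adhesion genes, by list, for SCNT minus AI on the left and IVP minus AI on the right. Filled points passed at an adjusted p under 0.05, red for higher and blue for lower, and open points did not pass. ITGB2 lies farthest to the left in both panels, at -4.34 and -3.80.

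Among the tight junction genes 1 of 15 was higher and 6 were lower in SCNT than in AI conceptuses, and 1 was higher and 4 were lower in IVP. JAM2, a junctional adhesion molecule, averaged 4.37 ± 0.39 in SCNT, 4.35 ± 0.54 in IVP and 2.91 ± 0.23 in AI conceptuses (SD, n = 3 each), at least 1.29-fold and 1.27-fold higher. It was above log2 4 on no AI array and passed the filter through SCNT and IVP arrays only, so it had to differ. PARD6B, a polarity protein, fell at least 2.26-fold in SCNT and, on the log2 scale, by 1.07 in IVP conceptuses. Its call in IVP ended in 8 of 9 omissions of an array. CXADR, an adhesion receptor of the junction, was at least 2.00-fold and 1.89-fold lower. PARD6B exceeded log2 4 on 3 AI, 0 SCNT and 2 IVP arrays, and CXADR on 3 AI, 1 SCNT and 1 IVP arrays. Both met the filter only with the AI arrays, so their calls are no support. CLDND1, a claudin-domain protein, fell by 1.01 and 0.96 on the log2 scale. Beyond the rule for naming genes, and after their values were seen, CLDN6 is named for its high level in conceptuses: 10.72 ± 0.21 in SCNT, 10.84 ± 0.12 in IVP, 11.34 ± 0.02 in AI conceptuses and 2.54 ± 0.09 in fibroblasts (SD, n = 3 each). Its fall against AI was 0.61 in SCNT and 0.50 in IVP conceptuses, on 1 of its 2 probe sets in SCNT and on both in IVP. CLDN12 and F11R passed for SCNT minus AI too (-0.70 and -0.45). The call of CLDN12 ended in 3 of 9 omissions of an array, and that of F11R in all 9.

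GJB2, the connexin 26 gene, was 1 of 2 other gap junction genes tested and was lower in both SCNT and IVP conceptuses. It averaged 3.07 ± 0.05 in SCNT, 3.01 ± 0.50 in IVP and 5.11 ± 0.13 in AI conceptuses (SD, n = 3 each), at least 2.16-fold lower in both. Like GJB5 it exceeded log2 4 on AI arrays alone and passed the filter through them, so it had to differ and its calls are no support. GJA1, the connexin 43 gene of many tissues, averaged 7.80 ± 0.16 in SCNT, 8.64 ± 0.48 in IVP, 7.67 ± 0.76 in AI conceptuses and 11.53 ± 0.15 in fibroblasts (SD, n = 3 each), and its differences from AI did not pass (adjusted p = 0.815 and 0.0755).

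Of 6 adherens junction genes NECTIN2, an adhesion molecule, was the only one to pass, at least 1.44-fold lower in SCNT and 1.38-fold lower in IVP conceptuses. It exceeded log2 4 on 3 AI, 0 SCNT and 1 IVP arrays. The AI arrays thus carried NECTIN2 through the filter, and its calls are no support. The catenin genes CTNNB1, CTNNA1 and JUP, whose proteins tie cadherins to the cytoskeleton, did not pass, with differences of -0.19, -0.11 and 0.12 for SCNT minus AI and of -0.22, -0.13 and 0.00 for IVP minus AI. The β subunit genes ITGB1 and ITGB5, partners of αV, did not pass either and gave -0.18 and 0.03 for SCNT minus AI and -0.07 and 0.13 for IVP minus AI. ITGB3, another partner of αV, was below log2 4 in the conceptuses and not tested among them, at 2.76 in SCNT, 2.66 in IVP and 2.64 in AI, against 8.32 in fibroblasts. The catenins and β subunits are named here after their values were seen.

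ITGB2, the β subunit of leukocyte integrins, was the only one of 3 integrin genes to pass. It averaged 4.14 ± 0.88 in SCNT, 4.67 ± 1.30 in IVP and 8.47 ± 0.58 in AI conceptuses (SD, n = 3 each). The difference was -4.34 for SCNT minus AI (adjusted p = 0.000773) and -3.80 for IVP minus AI (adjusted p = 0.00227). Of 15 leukocyte markers, AIF1 and CD48 were above 4 on the AI arrays and AIF1 alone on the SCNT and IVP arrays. The summed signal of the list was 102 to 133 in SCNT, 112 to 155 in IVP and 304 to 432 in AI conceptuses. PTPRC, TYROBP and CD53, also of that list, stayed at 2.51 or below on every conceptus array. CD14, below log2 4 on all arrays, averaged 3.24 in AI conceptuses and 2.42 in both SCNT and IVP conceptuses. Of 9 red cell markers ALAS2 alone exceeded 4, and on the AI arrays alone.

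FERMT2, or kindlin-2, which activates integrins, was higher by 0.74 in SCNT (adjusted p = 0.00347) and 0.81 in IVP conceptuses (adjusted p = 0.00335), and it was the only one of 9 linkers to pass. MFGE8, a secreted ligand of integrin αV, averaged 5.14 ± 0.07 in SCNT, 5.45 ± 0.44 in IVP and 6.99 ± 0.52 in AI conceptuses (SD, n = 3 each), and its fall passed (adjusted p = 0.000924 and 0.00357). The fibrinogen gene FGG was at least 2.30-fold lower in SCNT and 2.25-fold lower in IVP conceptuses. Its call in IVP ended in 5 of 6 omissions in which it was tested. FGG exceeded log2 4 on 2 AI, 0 SCNT and 1 IVP arrays and met the filter only with the AI arrays, so its calls are no support. The laminin gene LAMC1 was higher by 0.64 in IVP conceptuses, on 1 of its 2 probe sets. SPP1, the gene of osteopontin, was at the lowest level, 2.42, on all conceptus arrays, against 11.36 ± 0.12 in fibroblasts.

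Among 11 tetraspanins 1 rose and 2 fell in SCNT conceptuses, and the counts were the same in IVP. TSPAN2 averaged 5.42 ± 0.48 in SCNT, 5.47 ± 0.38 in IVP and 3.88 ± 0.25 in AI conceptuses (SD, n = 3 each), at least 2.60-fold and 2.69-fold higher. It went the opposite way from TSPAN1. TSPAN2 exceeded log2 4 on 3 SCNT, 3 IVP and 1 AI arrays. It met the filter only with the groups where it was high, so its calls are no support. CD63, a tetraspanin of endosomes, fell by 0.82 and 0.63 on the log2 scale, and TSPAN33 was at least 1.17-fold lower in both. TSPAN33 passed the filter through the AI arrays only, so it had to be lower and its calls are no support. Its call in IVP ended in 4 of 6 omissions in which it was tested.

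Of 7 epithelial surface genes 3 fell in each comparison and 0 rose. BCAM, a laminin receptor, averaged 5.57 ± 0.20 in SCNT, 5.83 ± 0.23 in IVP and 7.68 ± 0.32 in AI conceptuses (SD, n = 3 each), a fall of 2.11 (adjusted p = 6.42e-05) and 1.85 (adjusted p = 0.000188) that passed on both of its probe sets. MSN, or moesin, which ties membranes to actin, and the protease inhibitor gene SPINT2 fell by 0.95 and 0.82 in SCNT and by 0.89 and 0.70 in IVP conceptuses. EPCAM, a standard marker of epithelium, averaged 9.92 ± 0.35 in SCNT, 9.87 ± 0.18 in IVP and 9.67 ± 0.02 in AI conceptuses (SD, n = 3 each), and did not pass (adjusted p = 0.310 and 0.465). Of 6 genes listed as epithelial transcription factors, which include the splicing regulator ESRP1, ELF3 alone fell. It was 2.34-fold lower in SCNT and at least 2.48-fold lower in IVP conceptuses, calls that ended in 7 and 5 of 9 omissions of an array. ELF3 exceeded log2 4 on 3 AI, 1 SCNT and 0 IVP arrays and met the filter only with the AI arrays, so its calls are no support. Among 5 desmosome genes PERP fell in IVP conceptuses by 0.54, a call that ended in 7 of 9 omissions, and 0 passed in SCNT, where 1 had an unadjusted p under 0.05 in limma.

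Of the 20 calls for SCNT minus AI, 15 held in every omission of an array in which the gene was tested, with CLDN12, F11R, CXADR, MSN and ELF3 the exceptions, and of the 20 for IVP minus AI, 9 did. Those that held for IVP minus AI were CLDND1, JAM2, GJB2, ITGB2, FERMT2, MFGE8, TSPAN2, CD63 and BCAM. GJB2, TSPAN33 and FGG were tested in 6 of 9 omissions, since in the rest they left the filter. Holding is no support for genes that met the filter only with the groups where they were high, such as GJB2, JAM2 and TSPAN2. Between SCNT and IVP conceptuses 0 of the 73 genes passed in limma, and 5 had an unadjusted p under 0.05: CLDN12, MAGI3, GJA1, COL4A1 and TSPAN3, with differences of -0.71, 0.55, -0.84, -0.84 and -0.57. MAGI3 exceeded log2 4 on the SCNT arrays alone and met the filter through them, so it had to be higher and its p is no support. Its IVP mean of 3.72 is only a bound, and so is its difference.

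Hypoblast and yolk sac transcripts also moved with the groups. The mean level of 11 such markers was 4.68 to 4.82 in SCNT, 4.97 to 5.21 in IVP and 5.16 to 5.75 in AI conceptuses, and 5 of 7 tested markers were lower for SCNT minus AI. Their part in the differences of the 8 genes was not tested. The mean of the trophoblast markers was 10.11 to 10.28 in SCNT, 10.15 to 10.22 in IVP and 10.17 to 10.24 in AI conceptuses, but single markers went both ways. Of 10 tested, 3 were higher and 2 lower in each comparison with AI, among them ASCL2 (1.60 and 1.38) and HAND1 (-1.67 and -1.78). Of 3 epiblast markers on the array, POU5F1 and SOX2 stayed at 2.54 or below on every array. CRIPTO was at least 2.66-fold higher in SCNT and 3.30-fold higher in IVP conceptuses than in AI conceptuses. It exceeded log2 4 on SCNT and IVP arrays only and met the filter through them, so it had to differ. The part of these markers was not tested. The signal of GAPDH probes near the 3' end exceeded that near the 5' end, which grows as RNA degrades, by 0.28 to 0.45 in SCNT, 0.35 to 0.89 in IVP and 0.21 to 0.38 in AI conceptuses, and the part of this gap was not tested either.

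The lists were also compared between SCNT conceptuses and fibroblasts, over 90 genes tested in all 12 arrays. Of these 39 were higher and 40 lower (87.8%), next to 79.9% of all probe sets, and the median difference was 0.03 against 0.20 over all probe sets. Genes such as CD44, KLF4 and ZEB1 exceeded log2 4 on no SCNT array. They met the filter only with the fibroblast arrays, so they had to be lower. Others, such as CLDN6, CLDN7, PKP2, DSC2, GRHL1, ESRP1 and EPCAM, exceeded it on conceptus arrays only, so they had to be higher. The counts here and in the next paragraph are therefore a description. Tight junction genes were mostly higher in SCNT conceptuses (13 of 16, with 3 lower), as were all 5 desmosome genes. CLDN6 was at least 106-fold, CLDN7 at least 17.3-fold, PKP2 at least 15.2-fold and DSC2 at least 15.8-fold higher. Of 7 genes listed as epithelial transcription factors 5 were higher and 2 lower. ESRP1, the splicing regulator of that list, GRHL1 and TFAP2A were at least 15.0-fold, 9.70-fold and 7.42-fold higher. KLF4 was lower, at 2.90 in SCNT conceptuses and 8.94 in fibroblasts. Of 8 epithelial surface genes 5 were higher and 3 lower, with EPCAM at least 60.5-fold higher and CD44 at 2.56 against 8.62 in fibroblasts. All 3 tested repressors of E-cadherin were lower, with ZEB1 at 2.42 in SCNT conceptuses and 5.36 ± 0.39 in fibroblasts (SD, n = 3). ZEB1 and TCF4 exceeded log2 4 on the fibroblast arrays alone and met the filter through them, so they had to be lower. TCF3, above log2 4 on every array, averaged 4.55 in SCNT conceptuses and 5.15 in fibroblasts.

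Of 13 tetraspanins 3 were higher and 9 lower in SCNT conceptuses, and of 12 integrin ligands 2 were higher and 6 lower. The mesenchymal cadherin genes CDH11 and CDH13 were at least 45.3-fold and 86.0-fold lower, and ITGB3 at least 19.9-fold lower. The αV ligand genes SPP1 and TNC were at least 164-fold and 143-fold lower, and GJA1 was 13.3-fold lower. CDH11, CDH13, ITGB3, SPP1 and TNC exceeded log2 4 on the fibroblast arrays alone and met the filter through them, so they had to be lower. N-cadherin averaged 5.63 ± 0.18 in SCNT conceptuses and 5.40 ± 0.03 in fibroblasts (SD, n = 3 each). CDH11 and CDH13 were both at 2.43 in SCNT conceptuses. The filter took both in through the fibroblast arrays, so nothing is read from the contrast with N-cadherin.

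**Figure D4:**
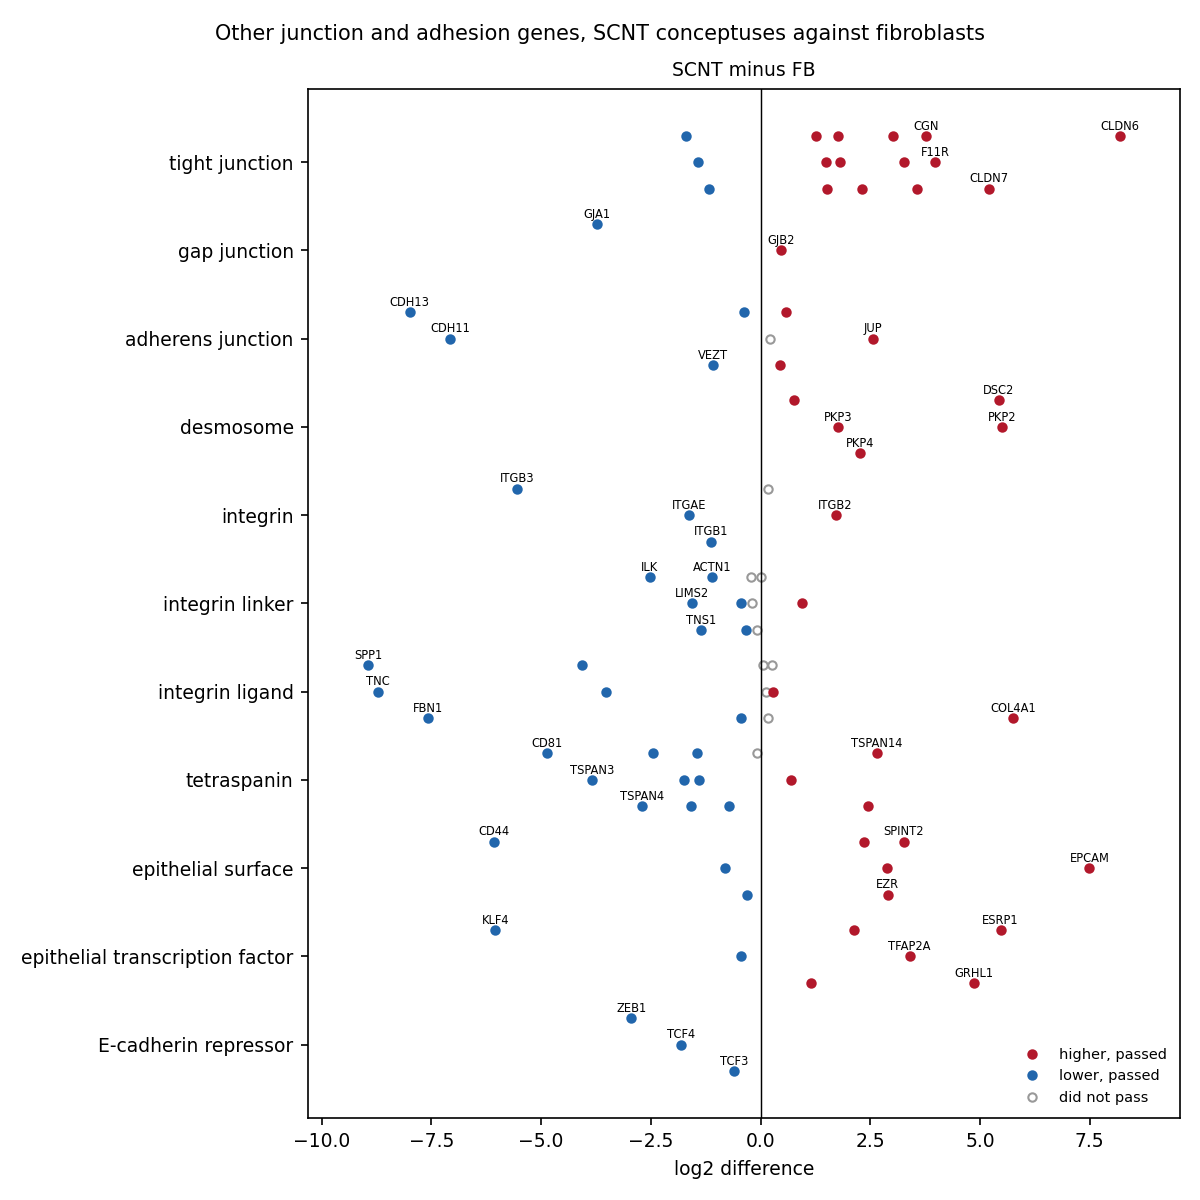
Log2 difference, SCNT minus FB (horizontal axis), of 90 other junction and adhesion genes, by list. Filled points passed at an adjusted p under 0.05, red for higher and blue for lower in SCNT conceptuses, and open points did not pass. Desmosome genes lie right of 0, E-cadherin repressors left of it, and CDH13 and CDH11 lie at -7.99 and -7.07. CDH13, CDH11 and the repressors ZEB1 and TCF4 met the filter through the fibroblast arrays only.

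The genes whose levels over the 9 conceptus arrays were most like those of each of the 8 genes were taken by Pearson's r, as a description. All 9 arrays share the 3 groups, so a gene that differs from AI like another scores high. CLDN1 was most like SPINK4 (r = 0.995), URAD and TKDP2, and GJB5 most like EAF2 (r = 0.994), C5H12orf75 and CLDN1 (r = 0.991). TSPAN1 was most like the mitochondrial carrier gene SLC25A12 (r = 0.994), ITGB2 and DLC1, and CDH2 most like HSD17B1 (r = 0.987), SLC9A3 and TXNRD1. CDH1 was most like SHROOM3 (r = 0.959), GPLD1 and EPAS1, and ITGAV most like LEPROT (r = 0.980), CLDND1 and EED. CLDN4 was most like AGPAT5 (r = 0.964), SLC44A2 and CDKN1A, and PLET1 had the lowest top score, with BRK1 (r = 0.952), MTCH2 and RAB25.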

How the data were processed

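Total RNA of 9 conceptus samples and 3 fibroblast samples was labelled with biotin and hybridized to 12 arrays. The deposited values are log2 signals, for which the authors used GCRMA and limma, per the submitters' processing notes. The sources used here do not give versions or say whether the arrays were normalized as 1 set. Of 24128 probe sets 112 controls were left out. Of the rest 13292 had 1 symbol in the array annotation, 86 several and 10638 none, and 13263 matched the ARS-UCD2.0 gene table, which changed 0 symbols. Columns left unused: 0.

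The deposited log2 values were used as they are. Only probe sets exceeding log2 4 on 3 or more arrays entered the linear models of limma (3.58.1, R 4.3.3), with 1 coefficient per group: 6892 over the 9 conceptus arrays (6 residual degrees of freedom) and 8164 over all 12 (8 degrees). Tests were two-sided, with Benjamini-Hochberg adjustment over all probe sets of a comparison. Calls are those with an adjusted p under 0.05. Intervals are 95%. A gene stands for its probe set brightest over the 12 arrays. Where a mean lay below 4, its arrays were raised to 4 where lower, which makes the fold a lower bound ("at least"). The procedure was tested on simulated data. The median SE of a difference between conceptus groups was 0.16, and the number of arrays limits the precision.

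Genes named were the 8, up to 4 called genes per list and comparison by size, and the 3 genes most like each of the 8. The 8 genes, the lists and the tests were chosen with earlier results of these data known. Alternatives were other filters, normalizations, variance models, sets of arrays, the mean of a gene's probe sets, a replicate block and the omission of arrays. No sequences are given.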

Additional observations from a re-analysis of the deposited data

Results flagged for a closer look

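The difference between SCNT and AI conceptuses was not that between IVP and AI conceptuses for PLET1, the surface protein gene. It lay 1.60 below the AI level in SCNT conceptuses on the log2 scale and at least 10.0-fold below it in IVP conceptuses, whose arrays were below log2 4. The test of that difference is the comparison of SCNT with IVP conceptuses, 2.75 as fitted (SE 0.37, adjusted p = 0.0105 in limma) and at least 3.32-fold, with SCNT arrays at 5.26 to 6.65 and IVP arrays at 2.72 to 3.43. This call ended without IVP 3 (adjusted p = 0.0503 in limma) and without the filter on low signal. The dimmer probe set did not pass (adjusted p = 0.231 in limma). Groups of 3 arrays are too small for a search for single arrays far from the others.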

How the results depend on the processing

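With 3 arrays a group, counts moved with the arrays and filters used. Without a filter on low signal, probe sets called were 984 for SCNT minus AI, 484 for IVP minus AI and 7 for SCNT minus IVP, instead of 1902, 1234 and 40. The other junction and adhesion genes called were then 10 and 4 against AI, instead of 20 each, and 0 of the 8 genes was called for SCNT minus IVP. Without AI 2, IVP 2 and IVP 3, 415 and 3 probe sets were called for IVP minus AI and SCNT minus IVP, 8 other genes for IVP minus AI, 3 of the 6 of the 8 genes still tested (ITGAV, TSPAN1 and PLET1), and 0 of them for SCNT minus IVP. That fit has 1 IVP array, which is assumed to vary like the other groups. With all 12 arrays in the fit 127 probe sets were called for SCNT minus IVP, and the cause was not tested.

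Over the omission of each array, calls ranged from 1167 to 1929 (SCNT minus AI, lowest without SCNT 2), from 671 to 1220 (IVP minus AI, 693 without AI 1, 671 without AI 3, 795 without IVP 1) and from 7 to 68 (SCNT minus IVP, 7 without SCNT 2, 68 without AI 3). The other genes ranged from 14 to 21 for SCNT minus AI and from 9 to 18 for IVP minus AI (9 without AI 1, 12 without AI 2 or IVP 3, 13 without AI 3 or IVP 1). Of the 8 genes 6 to 8 were called against AI, since CLDN1 and GJB5 left the filter when an AI array was left out, and 0 to 1 for SCNT minus IVP, 0 without IVP 3. For the 8 genes and the other genes named by rule, no called difference turned its direction under these alternatives.

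Replicate numbers did not pair the samples: deviations of same-numbered arrays correlated at -0.15 to 0.24. With a replicate block 23 probe sets were called for SCNT minus IVP, and all 8 genes stayed called against AI.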

Other observations

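On the SCNT arrays TSPAN1, PLET1, ITGB2, AIF1 and ELF3 shared a high array. SCNT 1 read 6.87 for TSPAN1, against 5.37 and 5.17 on SCNT 2 and SCNT 3. For the brighter probe set of PLET1 the values were 6.65, 5.26 and 5.29, and for the leukocyte integrin gene ITGB2 5.15, 3.56 and 3.70. For AIF1 they were 5.85, 4.88 and 4.74 and for the epithelial transcription factor gene ELF3 5.06, 3.65 and 3.53. The dimmer probe set of PLET1 read 3.03, 3.68 and 3.38 on SCNT 1, SCNT 2 and SCNT 3, all below log2 4, and did not repeat the pattern. On the IVP arrays TSPAN1 and ITGB2 were low together on IVP 1 (4.87 and 3.22) and high on IVP 2 (6.95 and 5.73) and IVP 3 (7.01 and 5.06), while PLET1 was highest on IVP 2. These arrays were picked after their values were seen, and no test was made.

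Some neighbours of the 8 genes, in the gene order of the ARS-UCD2.0 table, were on the array. CLDN3, beside CLDN4, CDH3, beside CDH1, and DSC3, beside CDH2, averaged 2.54 or less in every group, as did CLDN16, beside CLDN1. PTS, beside PLET1, was higher by 0.56 in SCNT (adjusted p = 0.00445 in limma) and 0.44 in IVP conceptuses (adjusted p = 0.0212) than in AI conceptuses, the opposite direction from PLET1. ABHD11, near CLDN4, was higher by 0.78 (adjusted p = 0.00817) and 0.68 (adjusted p = 0.0225), the opposite direction from CLDN4. The other tested neighbours, DSC2, ZC3H15 and POMGNT1, did not pass, with 0.07, 0.38 and 0.28 for SCNT minus AI and 0.03, 0.21 and -0.11 for IVP minus AI.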
